A study of Mus musculus with 18 samples.

Results

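The interferon regulatory factors (Irfs) are transcription factors that share a DNA-binding domain and act in interferon production and in the response to interferon. The 6 members followed here, Irf1, Irf2, Irf4, Irf5, Irf7 and Irf9, were taken by gene name from a table of 50600 genes, of which 16927 had enough reads to be tested. All 6 members were found and passed the filter on low counts. The family genes Irf3 and Irf8 are given for comparison.

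A cyclic dinucleotide (CDN) binds STING, which through the kinase TBK1 activates IRF3 and so starts transcription of the interferon beta gene. Secreted interferon then signals through STAT2 among other factors, and the complex ISGF3, which holds STAT2 and IRF9, binds interferon-stimulated response elements (ISREs). Irf1 and Irf7 are themselves interferon-induced, IRF2 binds the same elements as IRF1 and opposes it at many genes, IRF7 drives the interferon alpha genes, IRF5 drives inflammatory cytokines downstream of MyD88, and IRF4 acts in lymphocytes, dendritic cells, macrophages and pigment cells.

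RNA was sequenced from 18 whole subcutaneous tumors of B16F10, a mouse melanoma cell line implanted in C57BL/6 mice, in 9 groups of 2 tumors. After 1 intratumoral dose the groups had received PBS, unloaded extracellular vesicles (EVs), exoCDN2 at 0.1 µg, or free CDN2 at 20 µg or 100 µg, and after 2 doses PBS, exoCDN2 at 0.1 µg, CDN2 at 20 µg, or CDN2 at an amount that the labels do not give. CDN2 carries the agent name CL656 in the labels, exoCDN2 is CDN2 loaded into EVs from HEK293 cells that overexpress the membrane protein PTGFRN, and unloaded EVs are the same vesicles without it. Each tumor was taken 24 h after its last dose, and the second dose followed the first by 3 days. The 2 doses of PBS and of the drugs were given to tumors that were also 3 days older, so the number of doses and the age of the tumor cannot be told apart. In whole tumors, a lower level from fewer cells of a type and one from less RNA per cell cannot be told apart either.

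The libraries held 38671428 to 65983630 expected counts, except replicate 1 of CDN2 20 µg given for 2 doses, which held 21608895. Both tumors of that group also differed in makeup. Their 7 melanocyte markers, none of them at 0, summed to 6995 to 12733 CPM (counts scaled to the same library total) against 23531 to 23954 in PBS tumors given 2 doses. Their 5 neutrophil markers summed to 194 to 815 CPM against 1.56 to 1.96, and their 3 skeletal muscle markers to 1475 to 3055 CPM against 97.0 to 179. In exoCDN2 tumors given 2 doses, the leukocyte gene Ptprc stood at 76.9 to 113 CPM and the 6 T cell markers at 26.6 to 34.8 CPM, against 5.19 to 11.8 and 0.857 to 1.82 in PBS. The 4 monocyte markers summed to 376 to 552 CPM with exoCDN2 and 301 to 634 CPM with CDN2 20 µg after 2 doses, against 124 to 155 CPM with PBS, and 3 of 4 were called higher in each. The neutrophil markers summed to 17.9 to 60.8 CPM with 2 doses of exoCDN2, and 5 of 5 were called higher. Of all genes, 8.87% were called higher with 2 doses of exoCDN2 and 20% with 2 doses of CDN2 20 µg. After 1 dose the 3 endothelium markers stood at 26.6 to 27.4 CPM with CDN2 20 µg. All 3 were called lower than with PBS (73.1 to 76.1 CPM), where 0.886% of all genes were lower. The 4 keratinocyte markers summed to 59.9 to 113 CPM with 1 dose of PBS. They summed to 0.230 to 1.49 CPM with exoCDN2, 0.974 to 5.56 with CDN2 20 µg and 1.83 to 6.08 with CDN2 100 µg, none called. The part of these differences in the Irf values was not tested. The 5 markers of plasmacytoid dendritic cells, a type known for Irf7, summed to 27.7 to 163 CPM over the 18 tumors, most of it Tcf4 (26.3 to 145 CPM), with Cox6a2 at 0.0501 to 17.9 CPM and Siglech at 0 to 0.184 CPM. Their sum was 101 to 163 CPM after 2 doses of CDN2 20 µg, in the tumors with the highest skeletal muscle sums. There 2 of the 4 that could be tested were higher than with PBS, where 20% of all genes were. The part of muscle or of other cells in this sum was not tested. Of the 3 markers of plasma cells, a type known for Irf4, Tnfrsf17 was at 0 in 16 of 18 tumors, Jchain in 2 and Mzb1 in 0. Their highest values were 0.0244, 0.902 and 0.318 CPM.

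**Figure D1:**
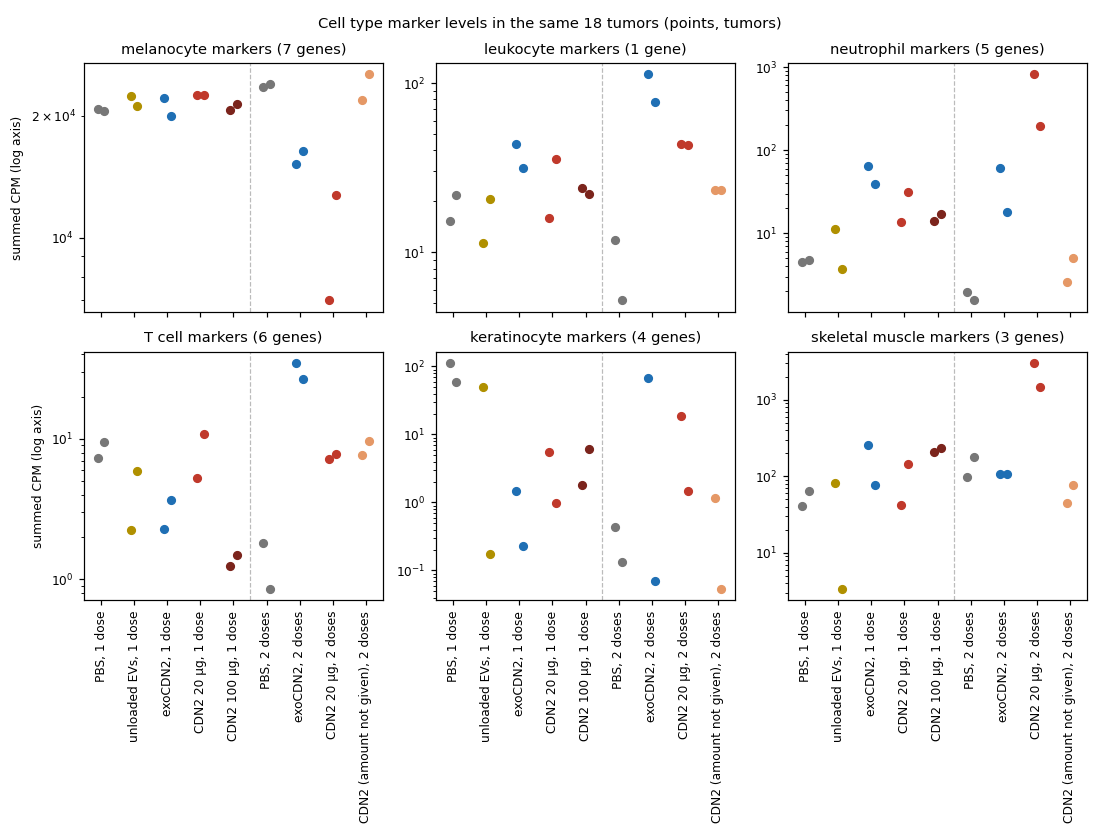
Summed CPM of 6 marker lists (vertical, log axis) in each of the 18 tumors (points) by group (horizontal). The 2 tumors given 2 doses of CDN2 20 µg lie lowest for melanocyte markers, at 6995 and 12733 CPM, and highest for neutrophil and skeletal muscle markers, while T cell markers are highest after 2 doses of exoCDN2, at 26.6 to 34.8 CPM.

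The regions just before the starts of Irf1, Irf2 and Irf7 are shown. These members and Irf9, whose region is not printed, rose in all groups of 1 dose of an agonist. Irf7 later parted from Irf1 and Irf2 between 1 dose and 2. The windows of every member, printed or not, were searched for 2 motifs of interferon signalling. RefSeq promoter windows (GRCm38.p6) of 300 bases, 250 before and 50 after each start, were searched on both strands for the ISRE core, GAAA followed after any 2 bases by a further GAAA, and for the gamma-activated site (GAS) TTCNNNGAA, which STAT dimers bind. The 250 bases before the start are printed 5′ to 3′ with motif matches in capitals, for Irf1 at chr11:53769764-53770013 on the plus strand, for Irf2 at chr8:46739495-46739744 on the plus strand and for Irf7 at chr7:141266425-141266674 on the minus strand.
Irf1: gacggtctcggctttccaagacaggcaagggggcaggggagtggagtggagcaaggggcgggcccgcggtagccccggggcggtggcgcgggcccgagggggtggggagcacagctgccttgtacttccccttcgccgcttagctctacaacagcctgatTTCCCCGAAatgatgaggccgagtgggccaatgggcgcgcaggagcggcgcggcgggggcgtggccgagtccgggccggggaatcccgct
Irf2: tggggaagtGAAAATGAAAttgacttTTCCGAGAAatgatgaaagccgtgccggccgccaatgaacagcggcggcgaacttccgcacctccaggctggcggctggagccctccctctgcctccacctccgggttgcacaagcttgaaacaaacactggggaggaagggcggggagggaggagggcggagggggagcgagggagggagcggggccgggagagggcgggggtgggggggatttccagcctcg
Irf7: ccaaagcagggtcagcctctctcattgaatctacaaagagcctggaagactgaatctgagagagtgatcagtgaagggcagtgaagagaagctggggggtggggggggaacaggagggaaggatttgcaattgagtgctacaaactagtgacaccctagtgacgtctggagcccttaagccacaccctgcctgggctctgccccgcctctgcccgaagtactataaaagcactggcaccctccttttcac
The Irf1 window held a GAS, TTCCCCGAA, with 81 bases between it and the start. The Irf2 window held an ISRE core, GAAAATGAAA, 231 bases before the start and a GAS, TTCCGAGAA, 215 bases before it, which did not overlap. The windows of Irf4, Irf5, Irf7 and Irf9 held neither string of letters, nor did a further window each of Irf1 and Irf9. Over all 32851 windows, 3.44% held the ISRE core and 8.3% the GAS, so a match is a description of the sequence and not a site shown to be used.

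Levels between genes were compared as CPM per kilobase of transcript. Irf1 was the most abundant of the 6, with a median of 118 CPM per kilobase over the 18 tumors and a range of 8.71 to 635. Irf7 (median 37.2, range 3.45 to 378) and Irf9 (median 31.2, range 6.37 to 37.8) followed, then Irf2 (median 11.9) and Irf5 (median 7.13). Irf4 was scarce, at a median of 0.295 CPM per kilobase and 19 to 141 reads in a tumor. The spread between the lowest and the highest tumor, on the log2 scale of normalized counts, was 6.93 for Irf7, 6.20 for Irf1, 4.73 for Irf5, 2.62 for Irf2, 2.61 for Irf9 and 2.42 for Irf4.

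**Figure D2:**
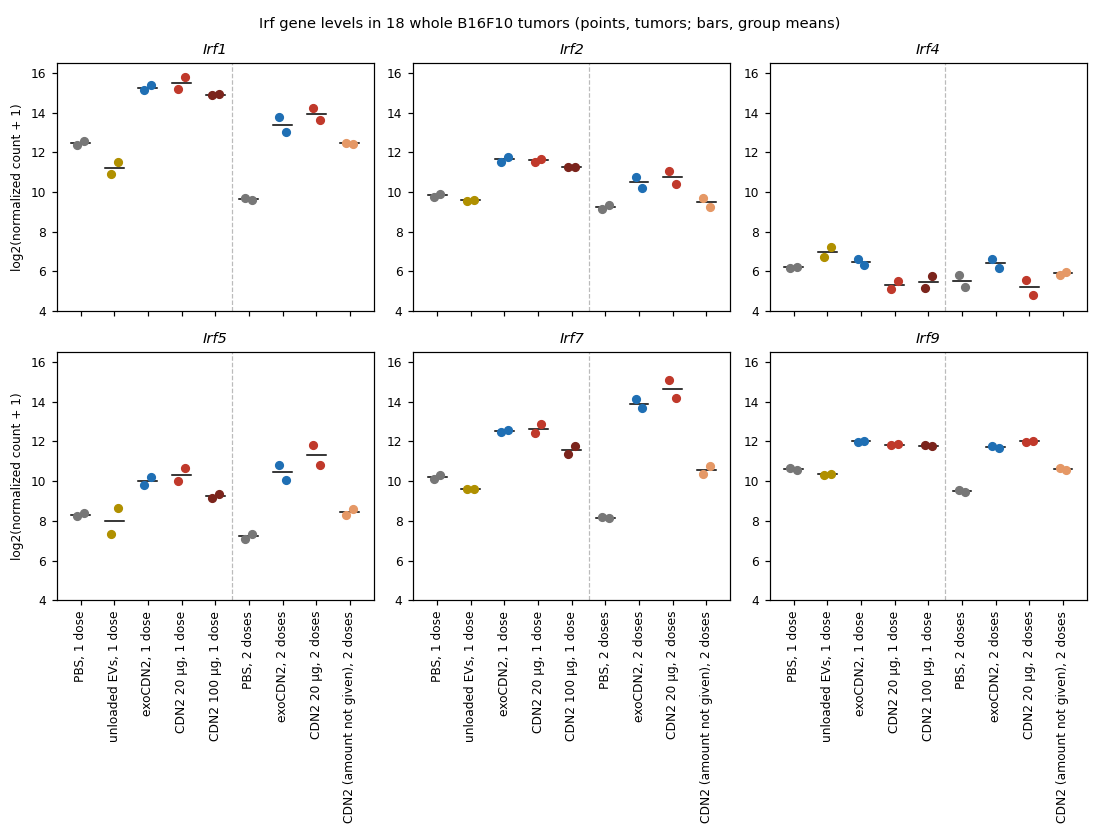
Level of each Irf gene as log2(normalized count + 1) (vertical) in each tumor (points) with the group mean (bars), by group (horizontal), with 1 dose left of the dashed line and 2 doses right of it. Irf7 spans the widest range, 6.93 on the log2 scale, with its lowest tumors given 2 doses of PBS and its highest given 2 doses of CDN2 20 µg.

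Irf1, an interferon-induced activator of antigen-presentation and inflammatory genes, rose in every comparison of a STING agonist with PBS. Its normalized counts after 1 dose were 5288 and 6051 with PBS, 1928 and 2974 with unloaded EVs, 35749 and 43043 with exoCDN2, 36972 and 56196 with CDN2 20 µg, and 30597 and 31164 with CDN2 100 µg. After 2 doses they were 826 and 764 with PBS, 13966 and 8338 with exoCDN2, 19388 and 12621 with CDN2 20 µg, and 5647 and 5568 with CDN2 of unstated amount. The agonist groups lay clear of PBS at the same number of doses, and all 6 agonist tumors of 1 dose lay above all agonist tumors of 2 doses. Against PBS, 1 dose of exoCDN2 gave a 6.78-fold level (log2 2.76, SE 0.31, edgeR quasi-likelihood test, adjusted p = 0.000345), CDN2 20 µg an 8.15-fold level (log2 3.03, SE 0.31, adjusted p = 0.000188) and CDN2 100 µg a 5.4-fold level (log2 2.43, SE 0.30, adjusted p = 0.0011). Against PBS after 2 doses, the level was 14.2-fold with exoCDN2 (log2 3.83, SE 0.32, edgeR adjusted p = 1.49e-05) and 19.6-fold with CDN2 20 µg (log2 4.29, SE 0.33, adjusted p = 6.56e-06). These larger ratios stood over a lower PBS level.

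Irf2, which competes with IRF1 for the same DNA elements, rose with Irf1 but less. After 1 dose its normalized counts were 852 and 966 with PBS, 742 and 784 with unloaded EVs, 2922 and 3503 with exoCDN2, 2964 and 3294 with CDN2 20 µg, and 2433 and 2487 with CDN2 100 µg. With 2 doses the counts were 569 and 645 with PBS, 1761 and 1169.6 with exoCDN2, 2170.5 and 1334 with CDN2 20 µg, and 839.5 and 602 with CDN2 of unstated amount. The last group overlapped PBS, while every other agonist group lay above it. One dose gave 3.45-fold with exoCDN2 (log2 1.78, SE 0.23, edgeR adjusted p = 0.000954), 3.42-fold with CDN2 20 µg (adjusted p = 0.000967) and 2.68-fold with CDN2 100 µg (adjusted p = 0.00566). The call at 100 µg was lost without either PBS tumor (edgeR adjusted p = 0.101 without replicate 1 and 0.0666 without replicate 2). After 2 doses the ratios were 2.45 for exoCDN2 (edgeR adjusted p = 0.0023) and 2.8 for CDN2 20 µg (adjusted p = 0.000378). Without replicate 1 of exoCDN2 given for 2 doses, the log2 difference of that group fell to 0.96, under the limit of a 2-fold ratio.

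Irf9, the DNA-binding subunit of ISGF3, rose by similar amounts under every dose and formulation of 1 dose, with little spread between replicates. Its normalized counts were 1598 and 1526 with PBS, 1282 and 1315 with unloaded EVs, 4020.4 and 4203 with exoCDN2, 3564 and 3796 with CDN2 20 µg, and 3587 and 3521 with CDN2 100 µg. Following 2 doses they were 746 and 689 with PBS, 3531 and 3230.3 with exoCDN2, 4084 and 4171 with CDN2 20 µg, and 1647 and 1528 with CDN2 of unstated amount. All 10 tumors given exoCDN2 or CDN2 at 20 or 100 µg lay between 3230.3 and 4203, while the PBS tumors ranged from 689 to 1598. The ratios to PBS after 1 dose were 2.57 for exoCDN2 (log2 1.36, SE 0.11, edgeR adjusted p = 4.07e-05), 2.34 for CDN2 20 µg (adjusted p = 8.73e-05) and 2.25 for CDN2 100 µg (adjusted p = 0.000142). The 2-dose ratios were 4.77 for exoCDN2 (log2 2.26, SE 0.12, edgeR adjusted p = 6.75e-07) and 5.63 for CDN2 20 µg (adjusted p = 2.66e-07).

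Irf7, the main driver of interferon alpha genes, gave the largest change of the 6 and was the member called higher after 2 doses than after 1 under both formulations. After 1 dose its normalized counts were 1098 and 1259 with PBS, 774 and 772 with unloaded EVs, 5624 and 6211 with exoCDN2, 5475 and 7529.98 with CDN2 20 µg, and 2683 and 3518 with CDN2 100 µg. After 2 doses they were 287 and 285 with PBS, 17797 and 13026 with exoCDN2, 34779 and 18866 with CDN2 20 µg, and 1324 and 1747 with CDN2 of unstated amount. The 2 groups given 20 µg or exoCDN2 for 2 doses lay above all other tumors, and the PBS tumors of 2 doses below all others. After 1 dose the ratio to PBS was 4.9 for exoCDN2 (log2 2.29, SE 0.27, edgeR adjusted p = 0.000471), 5.47 for CDN2 20 µg (log2 2.45, SE 0.27, adjusted p = 0.000277) and 2.61 for CDN2 100 µg (log2 1.38, SE 0.26, adjusted p = 0.0133). The call at 100 µg was lost without replicate 2 of that group (edgeR adjusted p = 0.117) or without PBS replicate 1 (0.167) or 2 (0.116). After 2 doses the ratio was 54.6 for exoCDN2 (log2 5.77, 95% interval 5.09 to 6.45, edgeR adjusted p = 6.78e-07) and 91.2 for CDN2 20 µg (log2 6.51, 95% interval 5.81 to 7.21, adjusted p = 4.09e-07), and it was log2 6.03 without the shallowest library.

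Irf5, which drives inflammatory cytokines such as IL-6 in myeloid cells, rose after 2 doses and less uniformly after 1. Its normalized counts after 1 dose were 298 and 333 with PBS, 159.7 and 397 with unloaded EVs, 897 and 1175 with exoCDN2, 1018 and 1609 with CDN2 20 µg, and 576 and 654 with CDN2 100 µg. Given 2 doses, the tumors held 135 and 163 with PBS, 1807 and 1074 with exoCDN2, 3603 and 1831 with CDN2 20 µg, and 316 and 387 with CDN2 of unstated amount. The unloaded EV tumors lay on either side of PBS, and the agonist tumors of 1 dose did not overlap PBS. Of the 1-dose groups, CDN2 20 µg passed the test (4.12-fold, log2 2.04, SE 0.43, edgeR adjusted p = 0.0178), exoCDN2 did not (3.2-fold, log2 1.68, SE 0.42, adjusted p = 0.0547), and neither did CDN2 100 µg (log2 0.95, adjusted p = 0.303). The exoCDN2 value passed with DESeq2 (adjusted p = 0.00175), and the CDN2 20 µg call was lost without replicate 2 of its group (edgeR adjusted p = 0.173) or without PBS replicate 1 (0.187) or 2 (0.148). After 2 doses the ratios to PBS were 9.81 for exoCDN2 (log2 3.29, SE 0.45, edgeR adjusted p = 0.000483) and 17.7 for CDN2 20 µg (log2 4.15, SE 0.47, adjusted p = 7.03e-05). Irf5 shares 1045 bases with the antisense gene Tnpo3, which held 3192 to 11592 counts, and whether the counting used strand is not given in the sources used here. Irf7 shares 45 bases with Phrf1 on the other strand and Irf9 123 bases with Rnf31 on the same strand.

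Irf4, a lymphoid and melanocytic family member, passed no test against PBS. After 1 dose its normalized counts were 70.5 and 74.5 with PBS, 104 and 148 with unloaded EVs, 98.2 and 79.2 with exoCDN2, 34.2 and 44.6 with CDN2 20 µg, and 35.1 and 53.2 with CDN2 100 µg. With 2 doses the counts were 55.8 and 36.7 with PBS, 98.2 and 72.1 with exoCDN2, 46.9 and 26.9 with CDN2 20 µg, and 56.2 and 62.1 with CDN2 of unstated amount. Both exoCDN2 groups lay above the free CDN2 groups of 20 µg at the same number of doses. In the main fit edgeR called this difference after 2 doses but not after 1, and the call did not hold in every fit. Its log2 differences from PBS were 0.26 (95% interval −0.51 to 1.02) with 1 dose of exoCDN2, −0.89 (−1.68 to −0.10, edgeR adjusted p = 0.243) with 1 dose of CDN2 20 µg, 0.89 (0.12 to 1.67, adjusted p = 0.108) with 2 doses of exoCDN2 and −0.41 (−1.25 to 0.43) with 2 doses of CDN2 20 µg.

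**Figure D3:**
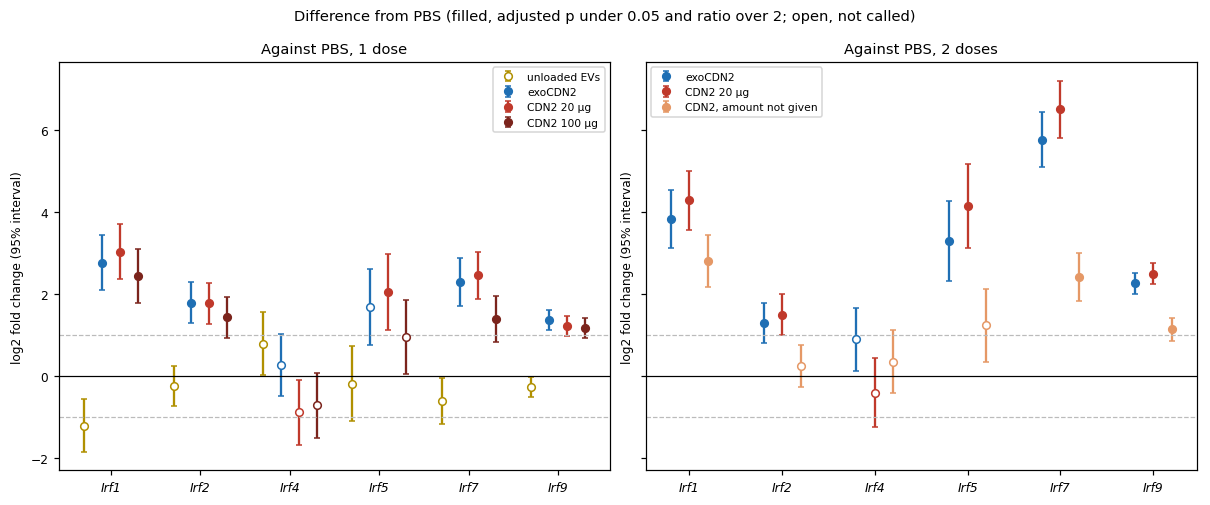
Log2 fold change of each Irf gene against PBS of the same number of doses (vertical) with its 95% interval (bars), by gene (horizontal) and treatment (colours). Filled points met both limits of a call (adjusted p below 0.05, change beyond 2-fold), dashed lines mark a ratio of 2, and the largest values are those of Irf7 after 2 doses, at 5.77 for exoCDN2 and 6.51 for CDN2 20 µg.

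Counted over the members, 1 dose of exoCDN2 raised 4 of 6 (Irf1, Irf2, Irf7 and Irf9), where 2.2% of all genes tested were called higher. CDN2 20 µg raised 5 of 6, Irf5 in addition, against 2.26% of all genes, and CDN2 100 µg raised the same 4 as exoCDN2, against 1.82%. Irf5 was not called between exoCDN2 and CDN2 20 µg, and its calls against PBS after 1 dose changed with the fit. The median log2 difference of the 6 members was 1.73, 1.91 and 1.28 in these comparisons, and that of all genes −0.02, 0.00 and 0.00. After 2 doses, exoCDN2 raised 5 of 6, against 8.87% of all genes, and CDN2 20 µg the same 5, against 20% of all genes, with member medians of 2.78 and 3.32 on the log2 scale. The comparisons at the same number of doses share their PBS tumors.

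Unloaded EVs showed whether the vesicle alone moved these genes. Against PBS, edgeR called 0 of 6 members, as it called 0% of all genes. At an unadjusted p under 0.05, 4 members and 540 of all genes differed, and DESeq2 called 1 member, Irf1 (log2 −1.21, adjusted p = 0.0367). The edgeR values were log2 −1.22 for Irf1 (95% interval −1.85 to −0.58, adjusted p = 0.718), 0.79 for Irf4, −0.62 for Irf7 and −0.28 for Irf9, with Irf2 at −0.26 and Irf5 at −0.19. Loaded against unloaded EVs, 5 of 6 members were higher, where 2.52% of all genes were. Irf1 stood 15.8-fold higher (log2 3.98, SE 0.32, edgeR adjusted p = 2.3e-05), Irf7 7.51-fold (adjusted p = 7.71e-05), Irf2 4.13-fold (adjusted p = 0.000283), Irf9 3.11-fold (adjusted p = 9.24e-06) and Irf5 3.65-fold (adjusted p = 0.0318). The Irf5 call was lost without EV replicate 1 (edgeR adjusted p = 0.167) and without exoCDN2 replicate 1 (0.08) or 2 (0.186).

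The free agonist was also given as 1 dose of 100 µg, against 20 µg. edgeR called 0 of 6 members between these amounts, with 0.455% of all genes called. At an unadjusted p under 0.05, 2 members and 2797 genes differed, and DESeq2 called 1 member, Irf7 (adjusted p = 0.00646). Irf7 was 2.1-fold lower at 100 µg (log2 −1.07, 95% interval −1.63 to −0.51, edgeR adjusted p = 0.0803) and Irf5 2.14-fold lower (log2 −1.10, −2.0 to −0.19, adjusted p = 0.212). The intervals for the others were −1.22 to 0.03 for Irf1, −0.83 to 0.13 for Irf2, −0.29 to 0.19 for Irf9 and −0.64 to 0.97 for Irf4. In the same tumors the T cell markers summed to 1.24 to 1.48 CPM at 100 µg and 5.26 to 10.8 CPM at 20 µg, with 0 of 6 called. The endothelium markers summed to 69.0 to 95.1 and 26.6 to 27.4 CPM, with 3 of 3 called higher at 100 µg. The part of either in these values was not tested.

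The 2 formulations were compared at the amounts of the study, 0.1 µg of CDN2 in EVs and 20 µg of free CDN2, so the amounts differ. After 1 dose, edgeR called 0 of 6 members, where 0.608% of all genes were called. At an unadjusted p under 0.05, 1 member, Irf4, and 3300 genes differed, and DESeq2 also called Irf4 (log2 1.18, adjusted p = 0.0493). Irf4 was higher with exoCDN2 by log2 1.15 (95% interval 0.35 to 1.94, edgeR adjusted p = 0.118). The other intervals were −0.89 to 0.36 for Irf1, −0.47 to 0.49 for Irf2, −1.26 to 0.52 for Irf5, −0.71 to 0.39 for Irf7 and −0.11 to 0.37 for Irf9, so that a difference of 2-fold lay outside the intervals of all of these but Irf5. Beside these values, the endothelium markers summed to 77.7 to 79.1 CPM with exoCDN2 and 26.6 to 27.4 CPM with CDN2, with 3 of 3 called higher, and their part was not tested.

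After 2 doses, exoCDN2 differed from CDN2 20 µg in 1 of 6 members by both limits. Irf4 was 2.47-fold higher (log2 1.30, SE 0.38, edgeR adjusted p = 0.0204), where 7.34% of all genes were higher. That call was lost without replicate 2 of CDN2 (log2 0.98, edgeR adjusted p = 0.0828) or without replicate 1 of exoCDN2 (1.08, adjusted p = 0.0931), and Irf4 held few reads. Irf7 was 1.67-fold lower with exoCDN2 (log2 −0.74, 95% interval −1.29 to −0.19, edgeR adjusted p = 0.0387), which is under the ratio limit, and stood at −0.27 without the shallowest library and at −1.05 (adjusted p = 0.00189) without the other CDN2 tumor. Irf5 stood at log2 −0.85 (−1.74 to 0.04, edgeR adjusted p = 0.118), at −1.20 (adjusted p = 0.0335) without replicate 2 of CDN2 and at −0.33 (adjusted p = 0.639) without the shallowest library. The intervals were −1.09 to 0.16 for Irf1, −0.68 to 0.29 for Irf2 and −0.48 to 0.00 for Irf9. Beside the Irf4 value, the summed melanocyte markers were 15205 to 16330 CPM with exoCDN2 and 6995 to 12733 CPM with CDN2, and the T cell markers 26.6 to 34.8 and 7.25 to 7.81 CPM. The part of either in the Irf4 difference was not tested.

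PBS tumors themselves differed between 2 doses and 1. Irf1 was 7.16-fold lower after 2 doses of PBS (log2 −2.84, SE 0.31, edgeR adjusted p = 0.000546), Irf7 4.14-fold lower (log2 −2.05, SE 0.27, adjusted p = 0.00187) and Irf9 2.19-fold lower (log2 −1.13, SE 0.11, adjusted p = 0.000469), so 3 of 6 members fell, where 1.05% of all genes did. The other members stood at log2 −0.59 for Irf2, −0.65 for Irf4 and −1.09 for Irf5, none past the test. These 3 calls held without each of the 4 PBS tumors in turn. In the same tumors the keratinocyte markers summed to 59.9 to 113 CPM after 1 dose and 0.132 to 0.429 CPM after 2, T cell markers to 7.36 to 9.51 and 0.857 to 1.82 CPM, and Ptprc to 15.2 to 21.8 and 5.19 to 11.8 CPM. The part of these in the Irf difference was not tested.

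Under the agonists the members divided between 1 dose and 2. With exoCDN2, Irf7 was 2.69-fold higher after 2 doses (log2 1.43, SE 0.26, edgeR adjusted p = 0.0056), where 5.1% of all genes were higher, while Irf1 was 3.41-fold lower (log2 −1.77, SE 0.30, adjusted p = 0.0043) and Irf2 2.12-fold lower (log2 −1.08, SE 0.22, adjusted p = 0.0106), where 2.34% of all genes were lower. With CDN2 20 µg, Irf7 was 4.02-fold higher (log2 2.01, SE 0.26, edgeR adjusted p = 0.000656), where 14.4% of all genes were higher, and Irf1 2.98-fold lower (log2 −1.57, SE 0.29, adjusted p = 0.00248), where 6.36% were lower. Irf9 stood near its 1-dose level in both (log2 −0.23, 95% interval −0.47 to 0.01, and 0.14, −0.10 to 0.38), Irf5 at 0.53 and 1.01 (the latter called by DESeq2, log2 1.05, adjusted p = 0.038), and Irf4 at −0.01 and −0.17. Irf2 under CDN2 stood at log2 −0.88 (edgeR adjusted p = 0.0112), under the ratio limit, and at −1.24 (adjusted p = 0.00438) without the shallowest library. For exoCDN2, the Irf7 call was lost without replicate 1 of the 1-dose group (edgeR adjusted p = 0.0764) or of the 2-dose group (0.0649), and the Irf2 call without either 1-dose tumor (0.0588 and 0.0785) or replicate 2 of the 2-dose group (0.0629).

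Because PBS tumors moved too, the change from 1 dose to 2 was also taken relative to PBS. With exoCDN2, Irf7 passed, with a change 11.2-fold above that of PBS (log2 3.48, 95% interval 2.67 to 4.29, edgeR adjusted p = 0.000562), so 1 of 6 members was called higher, where 5.12% of all genes were. Irf9 had log2 0.89 (SE 0.16, edgeR adjusted p = 0.00553), under the ratio limit, and Irf1 1.07 (adjusted p = 0.143) and Irf5 1.62 (adjusted p = 0.124) did not pass. With CDN2 20 µg, 4 of 6 members passed, where 11.7% of all genes did, namely Irf7 (16.7-fold, log2 4.06, SE 0.37, edgeR adjusted p = 0.000461), Irf5 (log2 2.10, SE 0.59, adjusted p = 0.0275), Irf1 (log2 1.27, SE 0.41, adjusted p = 0.0455) and Irf9 (log2 1.27, SE 0.16, adjusted p = 0.00151). For Irf1, which was lower after 2 doses than after 1 in both arms, the positive value means that it fell less under CDN2 than under PBS. The Irf1 call was lost without CDN2 20 µg replicate 1 of 1 dose (log2 0.94) or of 2 doses (0.93) and without any of the 4 PBS tumors (1.14 to 1.34), and the Irf5 call without the same 6 tumors (1.55 to 2.22). The calls of Irf7 and Irf9 were kept in all 8 such fits.

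Between the formulations, the change from 1 dose to 2 was not called for any member by edgeR (0 of 6, with 8.31% of all genes called) or by DESeq2. At an unadjusted p under 0.05, 1 member, Irf9, and 5067 genes differed. The values were log2 −0.58 (95% interval −1.36 to 0.20) for Irf7 and −0.37 (−0.71 to −0.03, edgeR adjusted p = 0.135) for Irf9.

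**Figure D4:**
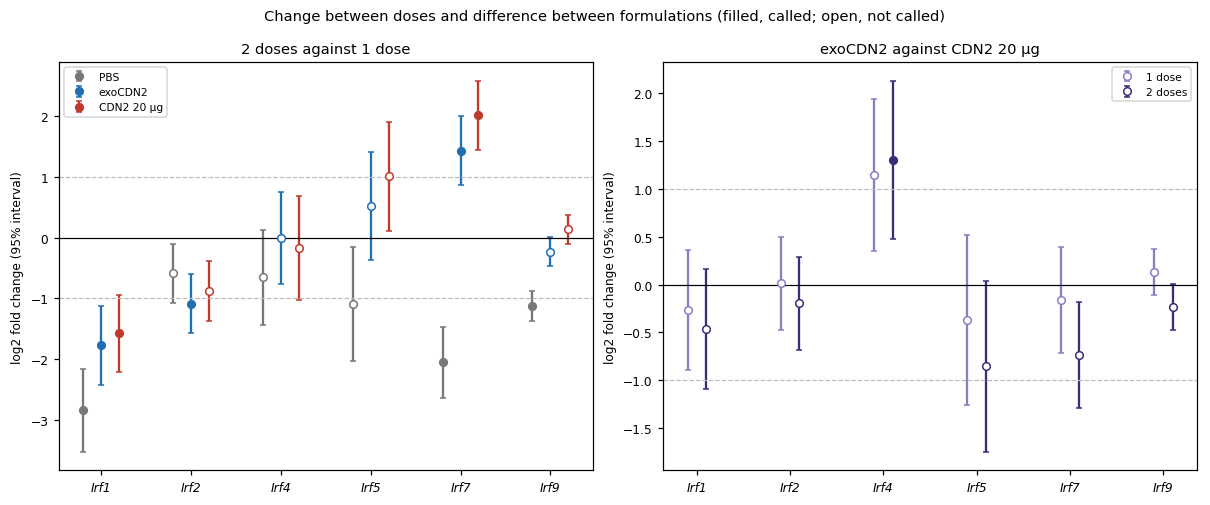
Log2 fold changes with 95% intervals (vertical) by gene (horizontal), for 2 doses against 1 within PBS, exoCDN2 and CDN2 20 µg (left) and for exoCDN2 against CDN2 20 µg after 1 and 2 doses (right). Filled points were called, and Irf7 falls with PBS (−2.05) but rises with exoCDN2 (1.43) and CDN2 (2.01), while Irf4 after 2 doses (1.30) is the filled point on the right.

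The 2 tumors given 2 doses of CDN2 at an unstated amount were compared with PBS of 2 doses in a fit of all 18 tumors. Irf1 was 6.99-fold higher (log2 2.81, SE 0.30, edgeR adjusted p = 0.000256), Irf7 5.32-fold (log2 2.41, SE 0.28, adjusted p = 0.000367) and Irf9 2.2-fold (log2 1.13, SE 0.13, adjusted p = 0.000367), so 3 of 6 members rose, where 0.918% of all genes did. Irf5 had log2 1.23 (edgeR adjusted p = 0.271), Irf4 0.34 and Irf2 0.24. In normalized counts, these tumors lay near the PBS tumors of 1 dose, at 5647 and 5568 against 5288 and 6051 for Irf1, and at 1647 and 1528 against 1598 and 1526 for Irf9. Set against all 4 PBS tumors, whichever their number of doses, none of the 3 was called (log2 0.78 for Irf1, 1.05 for Irf7 and 0.46 for Irf9).

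The ordering of the groups differed by member. For Irf1 and Irf2 the highest groups were exoCDN2 and CDN2 20 µg after 1 dose, whose tumors overlapped each other. For Irf5 and Irf7 the highest was CDN2 20 µg after 2 doses, followed by exoCDN2 after 2 doses, and for Irf5 this second group overlapped both 1-dose groups. For Irf4 it was unloaded EVs. Across the 16 tumors of the main fit, which share treatment groups and are therefore given as a description, the levels of Irf1 and Irf2 had a Pearson r of 0.967, Irf5 and Irf7 0.971, Irf1 and Irf9 0.940, and Irf2 and Irf7 0.694, while Irf4 had −0.187 to −0.222 with the other 5.

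The genes whose levels were most like those of each member over these 16 tumors were, for Irf1, the guanylate-binding protein gene Gbp5 (r = 0.983), Calhm6 (0.982) and Tmem140 (0.979). For Irf2 they were Daxx (0.986), Ripk2 (0.975) and Rbm43 (0.974), and for Irf5 Rnf114 (0.980), Cd47 (0.976) and Phf11a (0.974). For Irf7 they were the neighbouring paralogs Phf11b (0.992), Phf11d (0.989) and Phf11a (0.989), whose reads may be shared, and for Irf9 Usp18 (0.994), which encodes the protease that removes ISG15, Rtp4 (0.991) and Oasl2 (0.989). For Irf4 the highest were lower, at 0.790 for Col4a3bp, 0.775 for H2-DMb2 and 0.769 for Jarid2.

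Of the family genes given for comparison, Irf3, the factor that STING activates by phosphorylation, stayed between 1399.7 and 2439 normalized counts in all 18 tumors and was called in none of the comparisons by edgeR. Irf8, a factor of myeloid and dendritic cells, was 17.8-fold higher after 2 doses of exoCDN2 (log2 4.16, edgeR adjusted p = 0.000511) and 15.5-fold after 2 doses of CDN2 20 µg (log2 3.95, adjusted p = 0.000265), and after 1 dose stood at log2 0.17 and 1.83 without a call. It was 8.12-fold lower in PBS tumors of 2 doses than of 1 (edgeR adjusted p = 0.0181), as 300.6 and 300.3 against 2149 and 2713 normalized counts.

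Partners and upstream signalling genes of the family, a list of 27, held few called genes after 1 dose. exoCDN2 raised 3 of them, CDN2 20 µg 2 and CDN2 100 µg 2, with list medians of log2 0.11, 0.12 and −0.05, where 2.2%, 2.26% and 1.82% of all genes were called higher. Stat2, which joins IRF9 in ISGF3, was the most clearly raised (log2 2.47 with exoCDN2, edgeR adjusted p = 4.02e-05), with the adaptor Myd88 in all 3 groups and the kinase Jak2 with exoCDN2. After 2 doses 6 of 27 (22.2%) rose with either formulation, where 8.87% of all genes rose with exoCDN2 and 20% with CDN2 20 µg, the latter near the share of the list. Called with both were Stat2 (log2 3.45 and 3.02) and Spi1 (2.78 and 3.83), which encodes PU.1, a myeloid factor that pairs with IRF4 and IRF8. In PBS tumors Stat2 was lower after 2 doses than after 1.

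Genes with known ISGF3 control, a list of 12, rose in nearly every case. After 1 dose exoCDN2 raised 12 of 12, CDN2 20 µg 11 and CDN2 100 µg 11, with medians of log2 4.25, 4.54 and 4.12, and after 2 doses 12 of 12 rose with either formulation (medians 4.81 and 5.26). The shares over all genes in these 5 comparisons were 2.2%, 2.26%, 1.82%, 8.87% and 20%. Usp18 rose from 865 to 908 normalized counts with PBS to 14925 to 17557 with 1 dose of exoCDN2 (log2 4.16, SE 0.23, edgeR adjusted p = 8.07e-06). From 1 dose to 2, 9 of 12 fell with exoCDN2, such as Rsad2 (log2 −2.63) and Mx2 (−2.26), whereas Irf9 had log2 −0.23, and 2.34% of all genes fell. With CDN2 20 µg 5 fell and 2 rose, Isg15 (log2 1.33) and Oas2 (1.52), where 6.36% of all genes fell and 14.4% rose, so the 2 that rose (16.7%) are near the general share. Between formulations after 2 doses, 5 were lower with exoCDN2, Isg15 by log2 −2.0, and 0 higher, where 12% of all genes were lower and 7.34% higher.

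Genes with known IRF1 control, also 12, differed between the 2 dose numbers. After 1 dose 4 rose with exoCDN2 and 4 with CDN2 20 µg, where 2.2% and 2.26% of all genes were called higher. Among them were Cd274, which encodes the checkpoint ligand PD-L1 (log2 3.17 and 3.19), and the cytokine gene Il27 (5.30 and 5.68). With CDN2 100 µg 2 rose, where 1.82% of all genes did. The 3 that fell were the immunoproteasome genes Psmb8 (log2 −2.53) and Psmb9 (−2.40) and the class II transactivator Ciita (−3.81), where 0.62% of all genes fell. After 2 doses 11 of 12 rose with either formulation, where 8.87% of all genes rose with exoCDN2 and 20% with CDN2 20 µg. They included the chemokine gene Cxcl9 (log2 6.57 and 6.86), the peptide transporter gene Tap1 (4.75 and 4.37) and Gbp2 (6.11 and 6.19). In PBS tumors 7 of 12 were lower after 2 doses than after 1, as Irf1 was, where 1.05% of all genes were, and Cxcl9 went from 1755 to 2210 normalized counts to 88.2 to 147.

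Genes with known IRF7 control, Ifnb1 and 5 Ifna genes, were read mainly after 1 dose of an agonist, while Irf7 was highest after 2. Ifnb1 was also read after 2 doses of CDN2 20 µg. Ifnb1, which encodes interferon beta, had 6 counts in each PBS tumor of 1 dose, 866 to 1206 with exoCDN2, 560 to 1963 with CDN2 20 µg and 1472 to 1649 with CDN2 100 µg. The 5 Ifna genes had 0 counts in both PBS tumors, so that against a floor of 3 counts per library Ifna2 was at least 37.3-fold higher with exoCDN2, 25.8-fold with CDN2 20 µg and 23.4-fold with CDN2 100 µg. edgeR called 3 of 6 higher in each of these comparisons, where 2.2%, 2.26% and 1.82% of all genes were. The list medians were log2 7.85, 7.32 and 8.09 as fitted and 3.91, 2.88 and 3.86 with such genes at their bound. After 2 doses Ifnb1 had 0 raw counts with PBS, 3 to 7 with exoCDN2 and 40 to 185 with CDN2 20 µg, a group that holds the shallowest library. Against the same floor it was at least 94.1-fold higher with CDN2 20 µg than with PBS, and 1.39-fold with exoCDN2. edgeR called 1 of 6 higher with CDN2 20 µg, where 20% of all genes were, and 0 with exoCDN2, where 8.87% were. It called 1 of 6 lower with exoCDN2 than with CDN2 20 µg, where 12% of all genes were. Irf7 had 13026 to 34779 normalized counts in the same agonist tumors. From 1 dose to 2, 5 of 6 fell with exoCDN2 and 4 with CDN2 20 µg, where 2.34% and 6.36% of all genes fell.

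Of 5 genes with known IRF5 control, 4 could be tested. Il6 and Tnf rose in all 3 agonist groups of 1 dose, where 2.2%, 2.26% and 1.82% of all genes were called higher. Il6 rose by log2 7.10 with exoCDN2, from 11 and 16 reads with PBS to 1546 and 2126 reads. After 2 doses Tnf rose with both formulations (log2 3.45 and 4.42) and Il6 with CDN2 20 µg (6.65). Of all genes, 8.87% rose with exoCDN2 and 20% with CDN2 20 µg. Il6 and Il23a were lower with exoCDN2 than with CDN2 (log2 −4.00 and −2.10), where 12% of all genes were lower. Of 5 genes with known IRF4 control, 4 could be tested. Of these, 2 rose after 2 doses of either formulation, where 8.87% and 20% of all genes rose. They were the transcription factor gene Prdm1 and Il10, with exoCDN2 (log2 2.23 and 2.08) and CDN2 20 µg (3.17 and 2.12). Tyr, which encodes the melanin enzyme tyrosinase and is also in the melanocyte list, fell after 2 doses of CDN2 20 µg (log2 −1.81) and was higher with exoCDN2 than with CDN2 (1.47). Of all genes, 10.6% were lower in the first of these comparisons and 7.34% higher in the second.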

How the data were processed

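Members and gene lists were chosen with earlier results of these data known. The authors mapped quality-filtered reads with OSA (OmicSoft ArraySuite) to GRCm38, estimated gene counts with RSEM on Ensembl R88 models, and deposited RSEM expected counts for each tumor without normalization. The strand setting is not given in the sources used here. Reads shared by paralogs or overlapping genes are divided by estimation, so such genes are uncertain. The columns were matched to samples by their titles, and symbols, positions and lengths came from GENCODE M21, which named 50376 of 50600 genes.

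Expected counts were rounded to whole numbers. In edgeR 4.0.16 (R 4.3.3), low genes were removed with filterByExpr (minimum count 10, minimum total 15) and TMM factors were taken. The quasi-likelihood fit held 16 tumors, with a mean for each of 8 groups, which share 1 estimate of spread (8 residual degrees of freedom, common biological coefficient of variation 0.22). The 2 tumors with no amount in their labels entered a separate fit of 18 tumors and 17110 genes. Tests were two-sided, Benjamini-Hochberg adjustment ran over all genes tested, and a call needed both an adjusted p below 0.05 and a change beyond 2-fold. The study used DESeq2, which was an alternative here. With 2 tumors against 2, a permutation test cannot go below p = 0.333, so no test of single values was run. The labels say only that the replicates are separate samples, and the paper calls them biological replicates, 2 per group. The p-values rest on a spread between tumors estimated jointly over the groups of a fit, and they cover these tumors only.

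Normalized counts are rounded counts divided by DESeq2 1.42.0 size factors over 18 tumors, with log2 levels taken at a pseudocount of 1, and CPM per kilobase uses the mean length of consensus coding transcripts. Fitted ratios against groups at 0 counts are replaced by bounds from a floor of 3 counts per library, which covers counting error only. Depth was 21608895 to 65983630 counts per tumor. Genes named beside the members are other genes of the family, at most 3 called genes each way of each list by smallest p, and the 3 genes with the highest Pearson r with each member. Alternatives were DESeq2, RLE factors, no filter, no ratio limit, only the groups compared, all 18 tumors, pooled PBS tumors, each tumor left out, a replicate block and other level scales. The scripts were tested on simulated counts. Some genes of the lists are not reported here.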

Additional observations from a re-analysis of the deposited data

Results flagged for a closer look

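The change from 1 dose to 2 was tested for a difference between an agonist and PBS (edgeR, interaction of treatment and number of doses). It differed for 4 members at an adjusted p below 0.05, whatever the ratio. With exoCDN2 the difference was log2 3.48 for Irf7 (SE 0.37, adjusted p = 0.000562) and 0.89 for Irf9 (SE 0.16, adjusted p = 0.00553). With CDN2 20 µg it was log2 4.06 for Irf7 (SE 0.37, edgeR adjusted p = 0.000461), 2.10 for Irf5 (SE 0.59, adjusted p = 0.0275), 1.27 for Irf1 (SE 0.41, adjusted p = 0.0455) and 1.27 for Irf9 (SE 0.16, adjusted p = 0.00151). In both agonist arms Irf7 went up from 1 dose to 2, by log2 1.43 and 2.01, while it went down with PBS, by −2.05. For Irf9 the agonist arms stood at log2 −0.23 and 0.14 and PBS at −1.13. With the ratio limit as well, 1 of 6 members was called with exoCDN2, where 5.12% of all genes were called higher. With CDN2 20 µg it was 4 of 6, where 11.7% of all genes were. Under CDN2 20 µg the Irf1 and Irf5 calls did not hold with each tumor left out (lowest log2 0.93 and 1.55).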

How the results depend on the processing

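Over all alternatives, 1036 of the member values kept their direction and side of the threshold. Another 22 gained a call, 42 lost one and 28 changed sign. All 102 values under RLE factors and 101 of 102 with the replicate number as a block were unchanged in call. Same-numbered tumors deviated together by a mean r of 0.0529 (−0.136 to 0.308), so the labels' numbers were not taken as pairs. Under the block, Irf1 in the change under CDN2 20 µg relative to PBS lost its call (log2 1.27, adjusted p = 0.0599) and 3 members remained called. DESeq2 called 1 member for unloaded EVs against PBS, 1 for exoCDN2 against CDN2 after 1 dose, and 1 for CDN2 100 µg against 20 µg, and also called Irf5 for exoCDN2 against PBS after 1 dose and for 2 doses of CDN2 20 µg against 1. Without a filter, edgeR called 1 for unloaded EVs (Irf1, adjusted p = 2.70e-08, not called in the main fit), 2 for 100 µg against 20 µg, and 3 for the change under exoCDN2 relative to PBS. It also gained Irf5 for 1 dose of exoCDN2 against PBS, for 2 doses of PBS against 1 and for the unstated amount. The share of all genes called in each alternative is not given here. Without a ratio limit there were 2 for exoCDN2 against CDN2 after 2 doses and 2 for the change under exoCDN2 relative to PBS. Fits of only the groups compared gave 1 for 100 µg against 20 µg, 0 for exoCDN2 against CDN2 after 2 doses, 1 for 2 doses of CDN2 against 1 and 2 for exoCDN2 relative to PBS. They also gained Irf5 for 1 dose of exoCDN2 against PBS (adjusted p = 0.000201) and lost Irf5 for exoCDN2 against unloaded EVs (0.0564), Irf1 for CDN2 relative to PBS (0.0863) and Irf9 for the unstated amount (0.0913). The fit of all 18 tumors gained Irf5 for 1 dose of exoCDN2 against PBS (edgeR adjusted p = 0.0371), as did pooling all PBS tumors (0.00845). That pooling left 3 for 2 doses of exoCDN2 (Irf1 at log2 1.80, adjusted p = 0.0831) and 0 for the unstated amount. It also turned the sign, without a call, of Irf2 (0.0033), Irf5 (0.25), Irf7 (0.070) and Irf9 (0.18) for unloaded EVs and of Irf2 (−0.088) and Irf4 (−0.023) for the unstated amount. The cause was not tested.

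With each tumor left out in turn, called members ranged over 2 to 4 for CDN2 100 µg and 4 to 5 for CDN2 20 µg against PBS after 1 dose, 4 to 5 for exoCDN2 against PBS after 2 doses and against unloaded EVs, 0 to 2 for exoCDN2 against CDN2 after 2 doses, 1 to 2 higher or lower for 2 doses of exoCDN2 against 1, 2 to 3 for CDN2, and 2 to 4 for CDN2 relative to PBS. The share of all genes called in each of these fits is not given here. Whether the ranges follow the members or the general number of calls therefore cannot be told. The fits with a tumor left out also turned the sign of values that were not called. For exoCDN2 against CDN2 after 1 dose, Irf1 ranged over log2 −0.51 to 0.054, Irf2 over −0.12 to 0.13 and Irf7 over −0.35 to 0.075, and after 2 doses Irf2 over −0.50 to 0.15. For the change between doses in exoCDN2 relative to CDN2, Irf1 ranged over −0.60 to 0.16, Irf2 over −0.51 to 0.12, Irf4 over −0.19 to 0.51 and Irf5 over −0.89 to 0.020. Irf4 ranged over −0.17 to 0.43 for 100 µg against 20 µg, −0.56 to 0.14 for 2 doses of CDN2 against 1 and −0.26 to 0.20 for exoCDN2. Irf5 ranged over −1.0 to 0.32 for unloaded EVs, and Irf2 over −0.022 to 0.46 for the unstated amount against PBS. Leaving out 1 of 2 tumors assumes that the remaining one varies like the other groups. Levels moved by less than the replicate spread on the other scales.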
